A study of Arabidopsis thaliana with 21 samples.

Results

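The genes described here are the 40 seed storage, oil body, late embryogenesis abundant (LEA) and seed maturation regulator genes of Arabidopsis thaliana, read in seedlings that had left the seed stage. Membership rests on what they encode, with no measured value in the rule, although the genes were chosen with earlier results of these data known. The set holds 10 storage protein genes, 7 oil body genes, 18 LEA and related genes and 5 regulators, beside 24100 loci listed in the series. Polyadenylated RNA was sequenced from 21 libraries in 7 groups of 3. The groups were the wild types Columbia-0 (Col-0) and Landsberg erecta (Ler), the mutants asil1-1 and asil2-1 and the combined mutant asil1-1 asil2-1 in Col-0, the mutant asil2-2 in Ler, and a further combined mutant, asil1-1 asil2-2, for which the labels name both ecotypes. In that last line, mutation and ecotype cannot be told apart, so it was compared with both wild types. All seedlings were 14 days old, grew at 22 °C under 16 h of light on MS medium with no sucrose, and had no other treatment. The comparisons asked whether transcript levels differed from the wild type when ASIL1, ASIL2 or both carried a mutation.

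ASIL1 and ASIL2 encode trihelix transcription factors, a plant family that binds GT elements, and ASIL1 has been described as binding a GT element that overlaps a G-box in the promoter of the 2S albumin gene SESA3. In the maturing seed, the NF-YB factors LEC1 and L1L and the B3 factors LEC2, FUS3 and ABI3 switch on the storage programme, and B3 and bZIP factors bind RY elements and G-boxes of its promoters. Storage globulins and 2S albumins fill protein storage vacuoles, oleosins and caleosins coat oil bodies, and LEA proteins, dehydrins among them, accumulate as the embryo dries. Most of these genes are shut off after germination, while some LEA genes also respond to abscisic acid and water loss in vegetative tissue.

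The promoters that carry these elements are shown for 4 genes: SESA3 because ASIL1 has been tied to it, PAP85 and AT4G36700 because they are the storage genes with counts in every library, and M17 because it had the widest difference between the wild types among these genes. Each is the 250 nt before the annotated gene start in TAIR10.1, 5′ to 3′ on the gene's strand: chr4:13611546-13611795 (plus strand) for SESA3, chr3:8013942-8014191 (minus) for PAP85, chr4:17300368-17300617 (minus) for AT4G36700 and chr2:17206202-17206451 (plus) for M17. Capitals mark the RY element, the G-box and the GT element.
SESA3: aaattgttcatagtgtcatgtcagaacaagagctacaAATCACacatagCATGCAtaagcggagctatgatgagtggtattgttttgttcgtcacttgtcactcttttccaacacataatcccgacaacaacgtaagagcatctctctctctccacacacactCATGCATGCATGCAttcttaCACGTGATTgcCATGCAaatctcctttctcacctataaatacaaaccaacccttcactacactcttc
PAP85: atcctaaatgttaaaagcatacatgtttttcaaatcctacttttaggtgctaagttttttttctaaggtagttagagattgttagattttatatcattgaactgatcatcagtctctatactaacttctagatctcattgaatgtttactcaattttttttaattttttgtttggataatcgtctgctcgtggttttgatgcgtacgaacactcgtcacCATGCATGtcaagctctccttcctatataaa
AT4G36700: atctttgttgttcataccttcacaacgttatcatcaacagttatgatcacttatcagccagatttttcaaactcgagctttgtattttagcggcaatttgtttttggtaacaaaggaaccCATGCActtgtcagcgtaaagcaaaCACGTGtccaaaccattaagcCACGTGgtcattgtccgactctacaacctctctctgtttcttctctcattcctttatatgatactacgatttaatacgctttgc
M17: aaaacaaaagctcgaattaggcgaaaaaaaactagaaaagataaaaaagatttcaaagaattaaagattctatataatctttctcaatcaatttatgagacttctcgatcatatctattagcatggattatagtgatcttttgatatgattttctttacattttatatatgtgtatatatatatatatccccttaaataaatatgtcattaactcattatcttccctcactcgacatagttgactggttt

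The RY element (CATGCA on either strand) was found in 22 of the 40 promoters, in 9 of 10 storage, 7 of 7 oil body, 5 of 18 LEA and 1 of 5 regulator genes, beside 8.43% of 27438 protein-coding promoters of the same length. The G-box (CACGTG, a palindrome) was found in 20 of 40, in 6 storage, 2 oil body and 12 LEA genes, beside 6.49% of all. Its core (ACGTG on either strand, contained in every G-box) was found in 27 of 40, beside 22.9% of all. The GT element (GTGATT on either strand) was found in 6 of 40, in 3 storage, 2 LEA and 1 regulator gene, beside 15.6% of all. SESA3 held 7 RY matches, some of which overlap each other, and 2 GT matches. One of these GT matches, at 64 to 59 nt before the start, overlaps the G-box at 67 to 62. PAP85 held 2 overlapping RY matches, AT4G36700 held 1 RY match and 2 G-boxes, and M17 held none of the elements. A match describes letters, not bound sites.

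**Figure D1:**
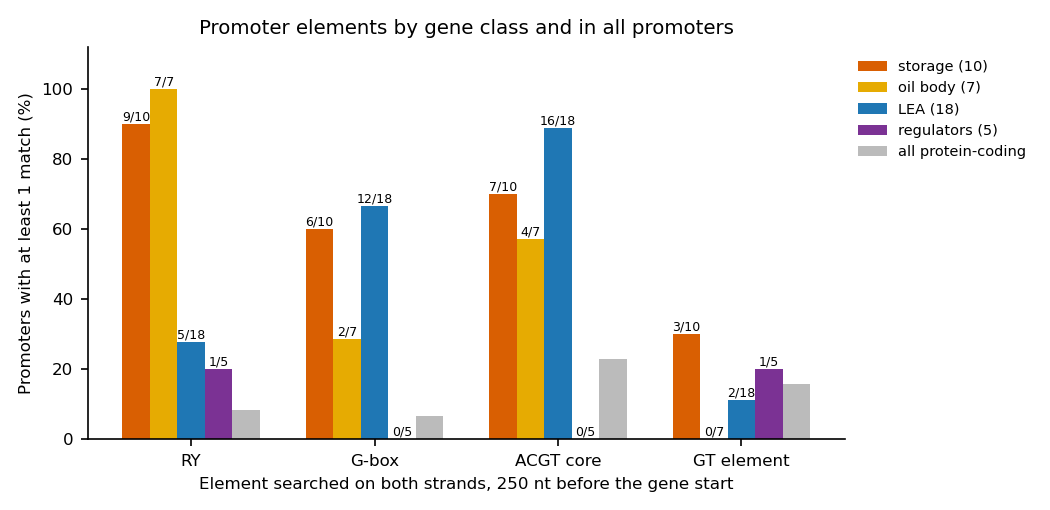
Share of promoters (percent, y axis) with at least 1 match to each element (x axis), for the 4 gene classes (coloured bars, with counts above) and all protein-coding genes (grey). RY matches are in 9 of 10 storage and 7 of 7 oil body promoters, beside 8.43% of all.

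Library totals ran from 6522764 to 28794135 counts, with 20305 to 21901 loci detected, so that 3 counts were worth between 0.104 and 0.46 counts-per-million (CPM), depending on the library. Among markers of green tissue, the Rubisco activase gene RCA lay between 10694 and 18409 CPM, RBCS1A between 6394 and 11772, CAB1 between 4346 and 12483, CA1 between 1632 and 5060, and LHCB2.2 between 153 and 1098. ASIL1 had a scaled level of 33.6 ± 1.25 CPM in Col-0 and 33 ± 3.32 in Ler (mean ± SD, n = 3 in each group), 40.4 ± 5.32 in asil2-1 and 37.9 ± 3.91 in asil2-2, but 4.83 ± 0.314 in asil1-1, 8.01 ± 0.639 in asil1-1 asil2-1 and 5.66 ± 1.13 in asil1-1 asil2-2. ASIL2 stood at 38.1 ± 8.97 CPM in Col-0, 31.6 ± 4.15 in Ler, 54.1 ± 3.57 in asil1-1 and 24.4 ± 6.45 in asil2-2, but at 435 ± 54.5 in asil2-1, 168 ± 32.5 in asil1-1 asil2-1 and 75.9 ± 15.5 in asil1-1 asil2-2, so its counts do not check the labels that name an asil2 allele. The summed level of 14 root markers (13 listed, ESB1 at 0) was 84.5, 113 and 33.5 CPM in Col-0 replicates 1, 2 and 3, and by group 9.71 to 13.2 in asil1-1, 12.5 to 25.9 in asil2-1, 8.62 to 32.2 in asil1-1 asil2-1, 27 to 74.2 in asil1-1 asil2-2, 10.7 to 33 in asil2-2 and 12.2 to 42 in Ler. Calls against Col-0 were refitted without Col-0 replicates 1 and 2 and with a root score as covariate (the mean log2 CPM of the 11 root markers tested), and those lost are named. Seed coat markers (5 of 6 listed, BAN at 0) summed to at most 0.972 CPM and flower markers (5 of 5 listed) to 8.09 to 31.5 CPM in any library. In whole seedlings, fewer cells of a type and less RNA per cell cannot be told apart.

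Most of the 40 genes were at or near the floor. Counts were listed for 33 of them, while CRU2, SESA1, SESA3, SESA4, SESA5, CLO2 and LEC1 had 0 of the 292136858 counts of the series, which allows a level of up to 0.0103 CPM for each (3 counts of the total; such limits and the intervals below cover counting error only). In all, 25 of the 40 had at most 25 counts over the 21 libraries, and a library held counts of 11 to 24 of them. PAP85, AT4G36700, OLEO4, AT3G01570 and RAB18 were the genes detected in all 21 libraries. The set had 14511 counts, of which the dehydrin gene RAB18 held 65.9%, and RAB18, PAP85 and M17 together 87.8%. Per kb of exon and pooled over all libraries, the level of RAB18 was 30.1 CPM, that of M17 was 5.49, that of PAP85 was 2.74 and that of OLEO4 was 1.17, followed by LEA7 at 0.841, AT3G01570 at 0.782 and AT4G36700 at 0.608.

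**Figure D2:**
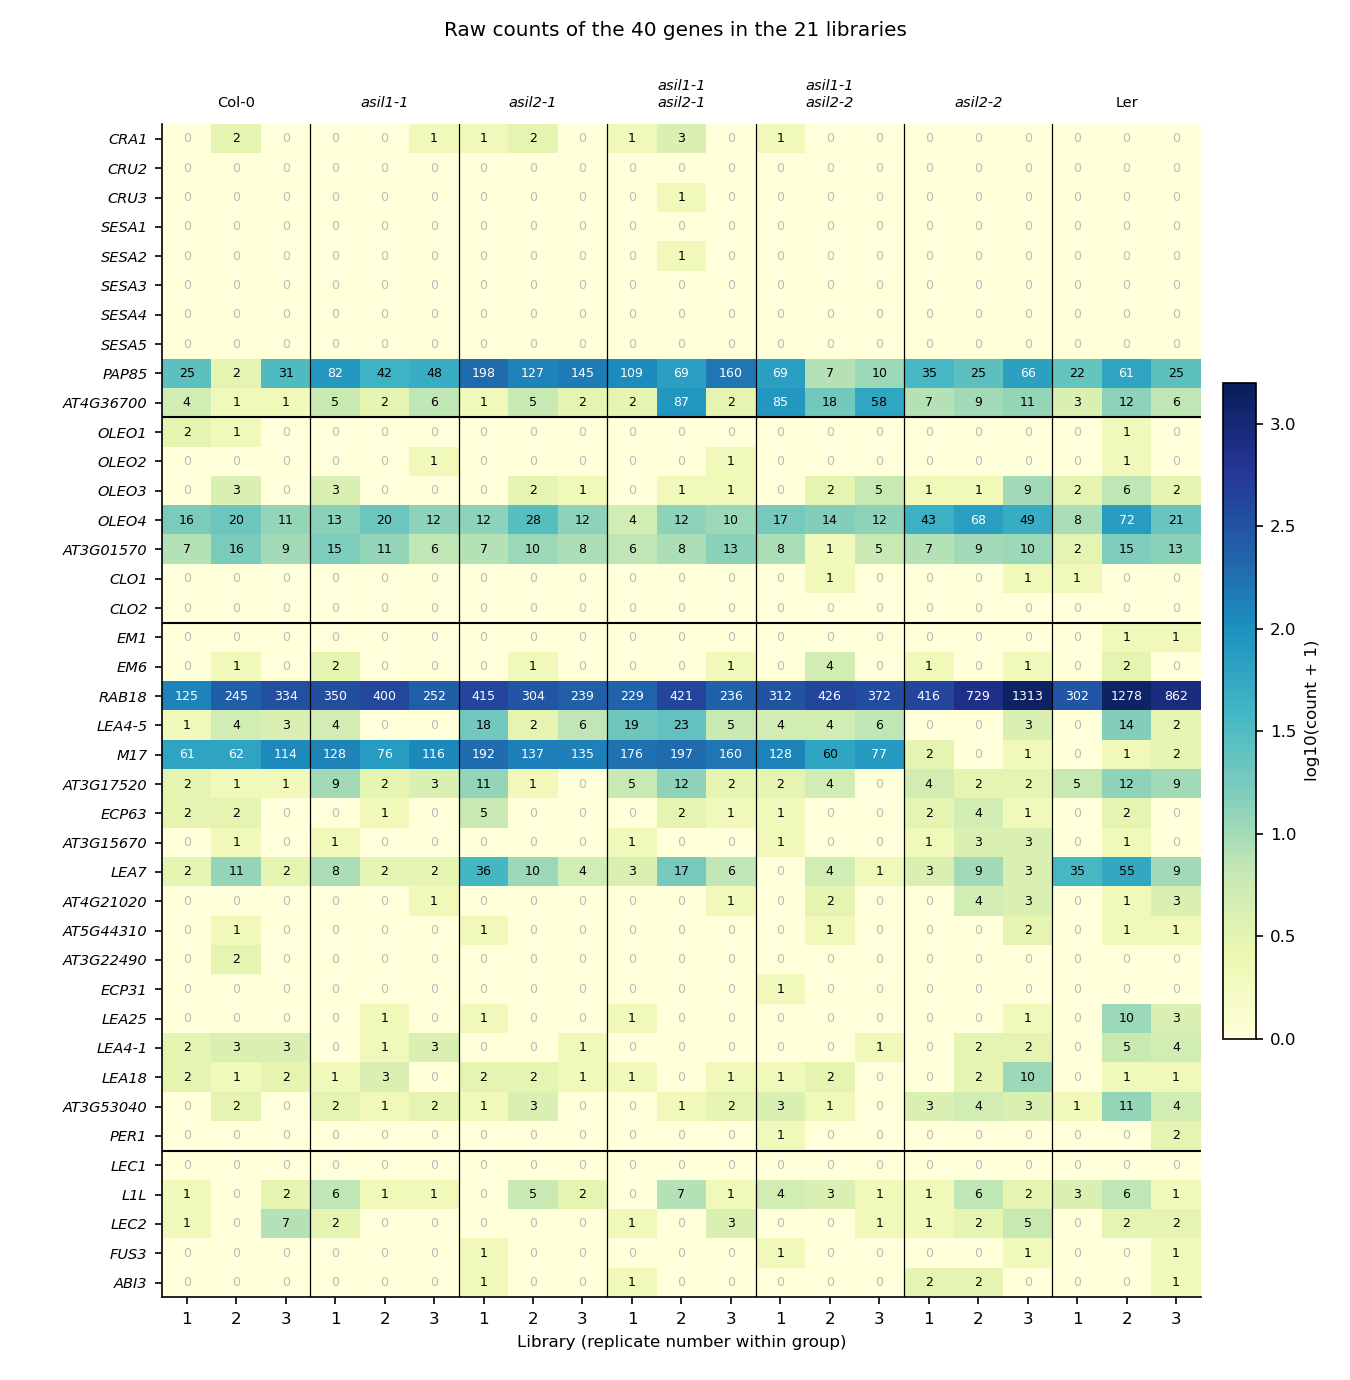
Raw counts of the 40 genes (y axis; lines divide storage, oil body, LEA and regulator genes) in each of the 21 libraries (x axis, by group and replicate), printed in each cell and coloured by log10(count + 1). RAB18 has 125 to 1313 counts in every library, while 7 genes have 0 throughout.

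Only 9 of the 40 genes passed the filter on low counts and were tested: PAP85 and AT4G36700 among storage genes, OLEO4 and AT3G01570 among oil body genes, and RAB18, LEA4-5, M17, AT3G17520 and LEA7 among LEA genes. No regulator was tested. The other 31 included the 7 at 0, and none had more than 53 counts in all or 11 in a library. With edgeR's quasi-likelihood test at a Benjamini-Hochberg adjusted p under 0.05 over 19589 genes, 0 of the 9 were called in asil1-1 against Col-0, beside 17.3% of all genes tested (8.91% higher and 8.35% lower), with 0 at an unadjusted p under 0.05 and 0 by DESeq2. In asil2-1 against Col-0, 1 was higher, beside 41.3% of all genes called (21.9% higher and 19.3% lower). In asil1-1 asil2-1 against Col-0, 1 was higher and 1 lower, beside 39.2% (20.5% higher and 18.8% lower). In asil2-2 against Ler, 1 was lower, beside 5.96% (2.39% higher and 3.57% lower).

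Against Ler, asil1-1 asil2-2 had 2 of the 9 higher and 3 lower, beside 28.3% of all genes (14.8% higher and 13.5% lower), and against Col-0 it had 1 higher and 1 lower, beside 32.2% (16.7% higher and 15.5% lower). The wild types themselves differed at 2 of the 9, 1 higher and 1 lower in Ler, beside 36.1% (17.9% higher and 18.3% lower). Between the combined mutant asil1-1 asil2-1 and its single mutants, 1 gene was lower than in asil1-1, beside 15.6% (6.21% higher and 9.43% lower). Against asil2-1 0 of the 9 were called, beside 6.21% (3.17% higher and 3.04% lower), where 2 had an unadjusted p under 0.05 and DESeq2 called 1. For non-additivity, the difference between the combined mutant and the sum of the asil1-1 and asil2-1 changes, 0 were called, beside 4.55% (2.22% above and 2.33% below), with 0 at an unadjusted p under 0.05 and 0 by DESeq2. For the change in asil2-2 from Ler minus that in asil2-1 from Col-0, 1 was called, below 0, beside 22.7% (10.6% above and 12.1% below). In all, 15 of 99 tests over the 11 comparisons were called, 6 higher and 9 lower, beside 4.55% to 41.3% of all genes in a comparison. Of the 9 genes, 7 were called at least once, all but LEA4-5 and AT3G17520. The share of all genes called at least once was not computed. The comparisons share control samples, so calls in one are not independent of calls in another.

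**Figure D3:**
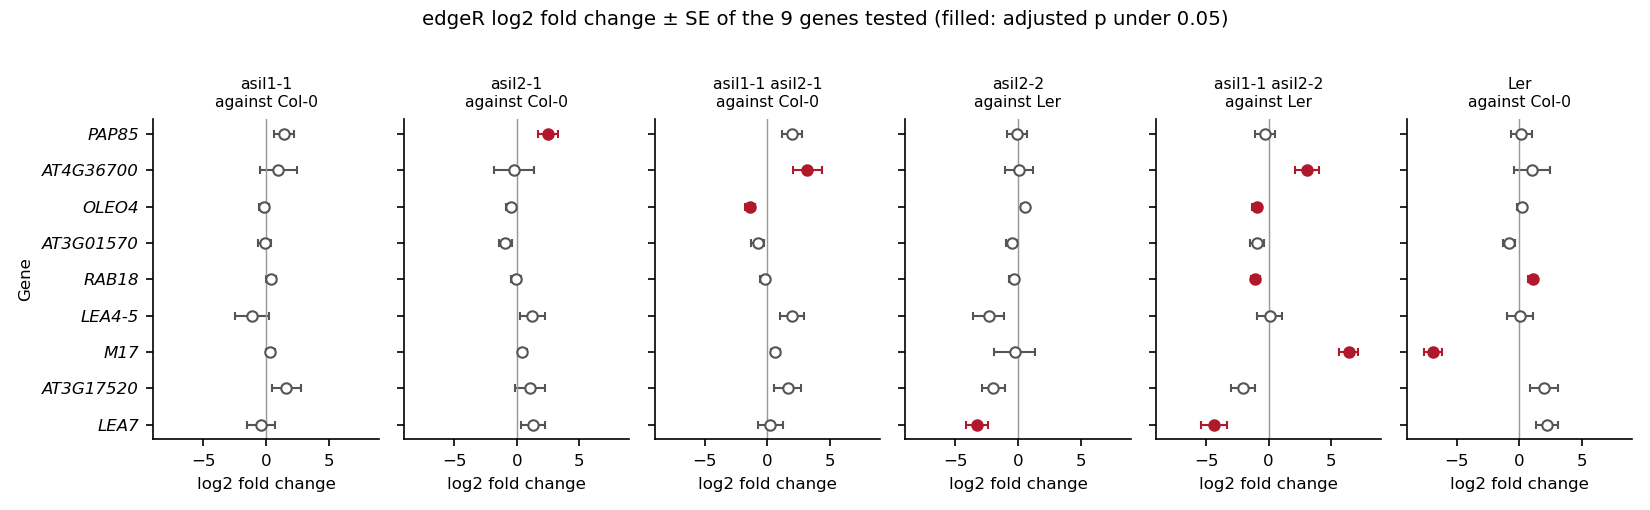
Log2 fold change (x axis, first group minus second, with SE) of the 9 tested genes (y axis) in 6 comparisons (panels), filled where the adjusted p is under 0.05. M17 is at -6.88 in Ler against Col-0 and at 6.39 in asil1-1 asil2-2 against Ler, the widest values shown.

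The 12S globulins (cruciferins) and 2S albumins, the bulk storage proteins of the Arabidopsis seed, were close to absent from the counts in every genotype. Their 8 genes had 13 counts in all, in 7 libraries, and 5 of the 8 were at 0. CRA1, a 12S globulin gene, held 11 of the 13, with 2 in Col-0 replicate 2, 1 in asil1-1 replicate 3, 1 and 2 in asil2-1 replicates 1 and 2, 1 and 3 in asil1-1 asil2-1 replicates 1 and 2, and 1 in asil1-1 asil2-2 replicate 1. CRU3 and SESA2 had 1 count each, both in asil1-1 asil2-1 replicate 2. Pooled over replicates, the 8 genes stood at 0.149 CPM in asil1-1 asil2-1, 0.0716 in asil2-1, 0.0694 in Col-0, 0.0307 in asil1-1 and 0.0243 in asil1-1 asil2-2, with 0 counts in asil2-2 and Ler, where 3 counts would be 0.0519 and 0.0607 CPM. The highest of these values is 6 counts, of which asil1-1 asil2-1 replicate 2 holds 5, and no test was run on such counts. SESA3, whose promoter holds the GT element over the G-box, was at 0 in all libraries. SESA1 to SESA4 lie in tandem on chromosome 4 (13607329 to 13614283), and how reads that match several copies were counted is not stated.

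PAP85, a vicilin-like globulin gene on chromosome 3 (8011724 to 8013941), held 80% of the storage class counts. It had 25, 2 and 31 counts in Col-0 replicates 1, 2 and 3, 82, 42 and 48 in asil1-1, 198, 127 and 145 in the asil2-1 libraries, 109, 69 and 160 in asil1-1 asil2-1, 69, 7 and 10 in asil1-1 asil2-2, 35, 25 and 66 in asil2-2, and 22, 61 and 25 in Ler. All 3 asil2-1 libraries (6.95 to 17.9 CPM) lay above all 3 Col-0 libraries (0.194 to 3.06), as did those of asil1-1 (3.81 to 6.04) and asil1-1 asil2-1 (4.51 to 11.8), while asil2-2 overlapped Ler. Pooled levels were 2.01 CPM in Col-0 (exact Poisson 95% interval 1.53 to 2.6), 5.27 in asil1-1 (4.51 to 6.12), 11.2 in asil2-1 (10.2 to 12.3), 8.38 in asil1-1 asil2-1 (7.51 to 9.32), 2.09 in asil1-1 asil2-2, 2.18 in asil2-2 and 2.18 in Ler.

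In asil2-1, PAP85 rose 5.62-fold over Col-0 (scaled CPM 12.1 ± 5.59 against 2.19 ± 1.74, mean ± SD, n = 3 each; log2 fold change 2.49 ± 0.77 SE, adjusted p = 0.0168). This call was lost without asil2-1 replicate 1 (log2 2.1, adjusted p = 0.066), without Col-0 replicate 2 (1.90, 0.0611), without Col-0 replicates 1 and 2 (1.84, 0.223) and with the root score as covariate (2.35, 0.101). The difference did not pass in asil1-1 (1.41 ± 0.80, adjusted p = 0.247) or in asil1-1 asil2-1 (1.97 ± 0.77, adjusted p = 0.0544). In asil1-1 asil2-1 it passed without replicate 2 (2.28, 0.0476), with library size alone (2.06, 0.0392) and with a replicate block (2.05, 0.00639). The change in asil2-2 from Ler minus that in asil2-1 from Col-0 was -2.57 ± 1.1 (adjusted p = 0.105), so the alleles were not shown to differ in the main fit. With a replicate block this value was -2.85 and passed (adjusted p = 0.0122).

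AT4G36700, a vicilin-like cupin gene on chromosome 4 (17298200 to 17300367), held 19.3% of the storage counts. It had 4, 1 and 1 counts in Col-0, 5, 2 and 6 in asil1-1, 1, 5 and 2 in the asil2-1 libraries, 2, 87 and 2 in asil1-1 asil2-1, 85, 18 and 58 in asil1-1 asil2-2, 7, 9 and 11 in asil2-2, and 3, 12 and 6 in Ler. It passed the low-count filter (at least 0.746 CPM in 3 libraries) only through asil1-1 asil2-2, since 2 libraries of other groups reached that level, so its higher values in that group were a condition of being tested. The asil1-1 asil2-2 libraries (1.23 to 6.15 CPM) lay above every Col-0 and Ler library, whereas in asil1-1 asil2-1 replicate 2 alone (5.68 CPM) stood out and held 95.6% of the 91 counts of its group. In asil1-1 asil2-2 the gene rose 16.6-fold over Col-0 (3.74 ± 2.42 against 0.228 ± 0.219 scaled CPM, n = 3 each; log2 4.06 ± 1.14, adjusted p = 0.0107) and 8.26-fold over Ler (against 0.448 ± 0.0182; log2 3.05 ± 0.95, adjusted p = 0.0222).

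The call against Col-0 was lost without Col-0 replicates 1 and 2 (log2 5.01, adjusted p = 0.117), and the value was 5.09 without Col-0 replicate 1. The AT4G36700 call against Ler was lost without asil1-1 asil2-2 replicate 1 (2.56, 0.0793) or 3 (2.94, 0.0536) and without Ler replicate 2 (3.01, 0.0891) or 3 (3.05, 0.0735). In asil1-1 asil2-1 the gene was also called higher than in Col-0 (log2 3.2 ± 1.18, adjusted p = 0.0393), with overlapping groups. That call rests on 1 library, since the value was -0.46 (adjusted p = 0.782) without asil1-1 asil2-1 replicate 2. It was also lost without Col-0 replicate 2 (2.80, 0.128), Col-0 replicate 3 (2.89, 0.114) or both Col-0 replicates 1 and 2 (adjusted p = 0.214), and with the root score as covariate (1.35, 0.64). With no filter (0.0516), a length offset (0.0532) or a replicate block (0.0742) its adjusted p also missed the threshold, so 7 of 15 alternatives kept the call. The value was 4.23 without Col-0 replicate 1.

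**Figure D4:**
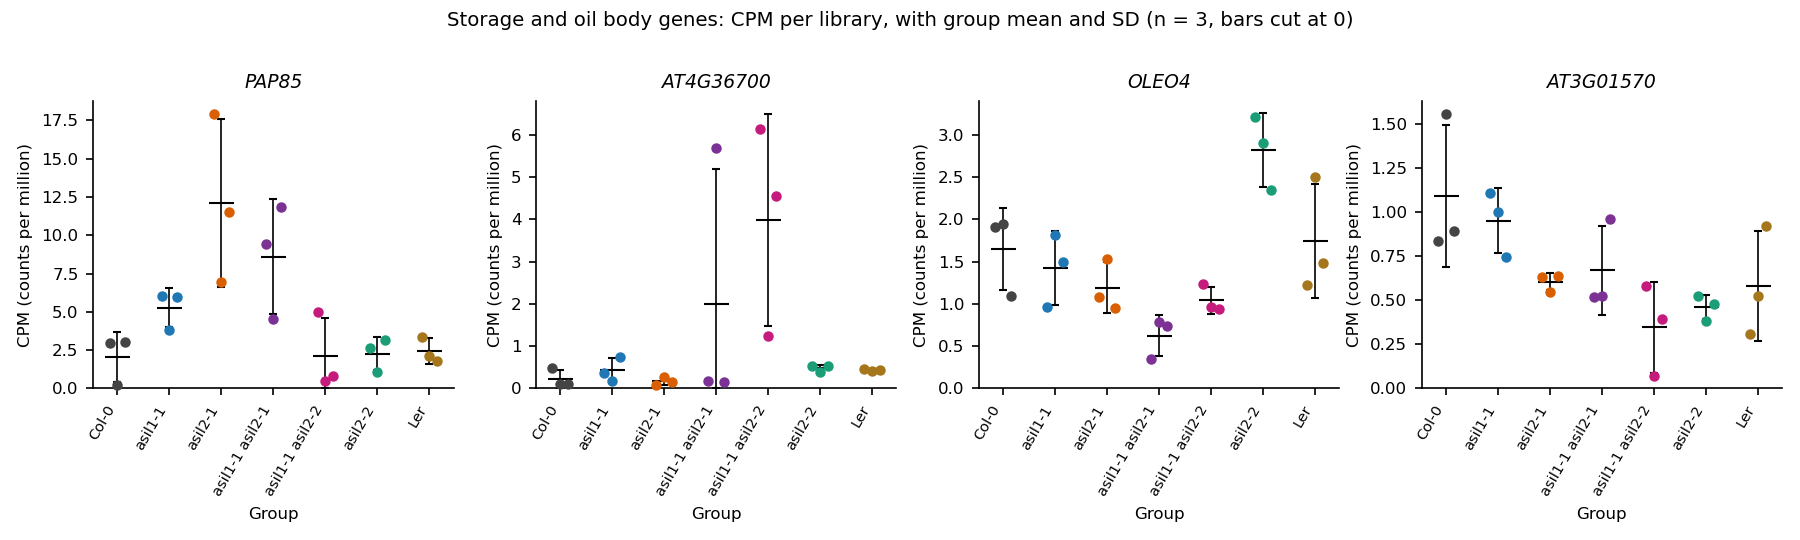
CPM (y axis) of PAP85, AT4G36700, OLEO4 and AT3G01570 in each library (points), with the group mean and SD (bar, n = 3, cut at 0), for the 7 groups (x axis). PAP85 in the 3 asil2-1 libraries (6.95 to 17.9 CPM) lies above the 3 Col-0 libraries, and 1 of the 3 asil1-1 asil2-1 libraries carries AT4G36700 at 5.68 CPM.

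The oil body genes had 709 counts, of which OLEO4 held 66.9% and OLEO4 with AT3G01570 held 93.1%. OLEO4 encodes an oleosin, a structural protein of the oil body surface, and lies on chromosome 3 (10243244 to 10245023). It had 16, 20 and 11 counts in Col-0, 13, 20 and 12 in asil1-1, 12, 28 and 12 in the asil2-1 libraries, 4, 12 and 10 in asil1-1 asil2-1, 17, 14 and 12 in asil1-1 asil2-2, 43, 68 and 49 in asil2-2, and 8, 72 and 21 in Ler. The 3 asil1-1 asil2-1 libraries (0.347 to 0.783 CPM) were the lowest of the Col-0 background and lay below every library of Col-0 (1.09 to 1.94) and asil1-1 (0.957 to 1.82). OLEO4 fell by 1.41 ± 0.40 on the log2 scale in asil1-1 asil2-1 against Col-0 (0.61 ± 0.241 against 1.67 ± 0.413 scaled CPM, n = 3 each; adjusted p = 0.00788) and by 1.25 ± 0.40 against asil1-1 (adjusted p = 0.0358).

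Against asil2-1, the OLEO4 value was -0.93 ± 0.39 and did not pass (adjusted p = 0.189). The call against Col-0 was lost without Col-0 replicates 1 and 2 (-0.92, 0.291) and with the root score (-1.34, 0.093). The call against asil1-1 was lost without asil1-1 asil2-1 replicate 1 (-0.99, 0.141) or 3 (-1.36, 0.0694) and without asil1-1 replicate 2 (-1.03, 0.159) or 3 (-1.21, 0.091). It was also lost with library size alone (0.0528), the length offset (0.0549) and only the compared groups (0.0851), and 8 of 15 alternatives kept it. OLEO4 was also called lower in asil1-1 asil2-2 than in Ler (-0.97 ± 0.35, adjusted p = 0.0448), but not than in Col-0 (-0.78 ± 0.37, adjusted p = 0.117). This last call was lost without asil1-1 asil2-2 replicate 1 (-1.12, 0.0575), 2 (-0.88, 0.12) or 3 (-0.90, 0.123) and without Ler replicate 2 (-0.56, 0.362) or 3 (-1.08, 0.0542). In 7 further alternatives its adjusted p lay between 0.0521 (length offset) and 0.1 (library size alone), and 3 of 15 alternatives kept it.

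AT3G01570, an oleosin gene on chromosome 3 (221939 to 222827), had 7, 16 and 9 counts in Col-0, 15, 11 and 6 in asil1-1, 7, 10 and 8 in the asil2-1 libraries, 6, 8 and 13 in asil1-1 asil2-1, 8, 1 and 5 in asil1-1 asil2-2, 7, 9 and 10 in asil2-2, and 2, 15 and 13 in Ler. The lowest counts were 1 in asil1-1 asil2-2 replicate 2 and 2 in Ler replicate 1. It fell by 1.78 ± 0.54 on the log2 scale in asil1-1 asil2-2 against Col-0 (0.327 ± 0.247 against 1.11 ± 0.354 scaled CPM, n = 3 each; adjusted p = 0.0153). The call was lost without asil1-1 asil2-2 replicate 2 (-1.26, 0.0677), without Col-0 replicate 2 (-1.49, 0.0851) without Col-0 replicates 1 and 2 (-1.57, 0.167) and with the length offset (-1.29, 0.0879), and the value was -2.40 without asil1-1 asil2-2 replicate 1. The gene shares 51 nt with AT3G01560, which had 13437 counts, and with strand not stated, reads of that stretch cannot be assigned.

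The remaining oil body genes were barely read. OLEO3, an oleosin, had 39 counts in 14 libraries, at most 9 in one (asil2-2 replicate 3). The oleosins OLEO1 and OLEO2 had 4 and 3 counts in 3 libraries each, the caleosin CLO1 had 3 counts in 3 libraries, and CLO2 had 0. OLEO1 and OLEO2 also share 44 and 15 nt with their neighbours. Pooled over its 7 genes, the oil body class stood at 3.43 CPM in asil2-2, 2.95 in Col-0, 2.91 in Ler, 2.48 in asil1-1, 1.91 in asil2-1, 1.58 in asil1-1 asil2-2 and 1.39 in asil1-1 asil2-1.

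The LEA class held 12013 counts, of which RAB18 made up 79.6% and M17 15.2%. RAB18, a dehydrin gene known to respond to abscisic acid, lies on chromosome 5 (26518277 to 26519447). It had 125, 245 and 334 counts in Col-0, 350, 400 and 252 in asil1-1, 415, 304 and 239 in the asil2-1 libraries, 229, 421 and 236 in asil1-1 asil2-1, 312, 426 and 372 in asil1-1 asil2-2, 416, 729 and 1313 in asil2-2, and 302, 1278 and 862 in Ler. In CPM the libraries ran from 14.9 (Col-0 replicate 1) to 62.7 (asil2-2 replicate 3), and the 3 Ler libraries (44.4 to 61) lay above every library of Col-0 and its mutants and of asil1-1 asil2-2.

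RAB18 was 2.11-fold higher in Ler than in Col-0 (52.4 ± 10.3 against 24.8 ± 10.7 scaled CPM, n = 3 each; log2 1.08 ± 0.37, adjusted p = 0.0345) and lower in asil1-1 asil2-2 than in Ler (-1.07 ± 0.37, adjusted p = 0.0392). The wild-type call was lost without Col-0 replicate 1 (0.83, 0.13), Col-0 replicate 2 (1.03, 0.096) or Ler replicate 3 (0.90, 0.121), without Col-0 replicates 1 and 2 (0.55, 0.491), and with the root score (0.35, 0.428). The second call was lost when any 1 of the 6 libraries was left out: asil1-1 asil2-2 replicate 1 (-0.97, 0.117), 2 (-1.1, 0.0767) or 3 (-1.14, 0.0762) and Ler replicate 1 (-1.13, 0.0535), 2 (-1.16, 0.0573) or 3 (-0.89, 0.141). It was lost as well with library size alone (-0.91, 0.0542), no filter (0.0527) and the root score (-0.62, 0.0947), so 6 of 15 alternatives kept it. RAB18 passed in neither asil1-1, asil2-1 nor asil1-1 asil2-1 against Col-0, nor in asil2-2 against Ler. In asil1-1 asil2-2 it was at 0.0097 ± 0.38 against Col-0 and did not pass (adjusted p = 0.989). With the root score as covariate it was lower in asil1-1 asil2-1 than in Col-0 (-1.18, adjusted p = 0.0208).

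M17, a gene of a LEA-type protein on chromosome 2 (17206452 to 17207698), was near absent from the counts of Ler and asil2-2 and read in all the other groups. It had 61, 62 and 114 counts in Col-0, 128, 76 and 116 in asil1-1, 192, 137 and 135 in the asil2-1 libraries, 176, 197 and 160 in asil1-1 asil2-1, 128, 60 and 77 in asil1-1 asil2-2, 2, 0 and 1 in asil2-2, and 0, 1 and 2 in Ler. The 15 libraries of the other groups lay between 4.10 and 17.4 CPM, and the 6 libraries of asil2-2 and Ler at no more than 0.149 CPM. Pooled levels were 8.23 CPM in Col-0 and 0.0607 in Ler (exact Poisson 95% interval 0.0125 to 0.177), a ratio of 136 with an exact counting interval of 45.8 to 662.1. The ratio of asil1-1 asil2-2 to Ler was 106 (35.9 to 517).

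M17 fell by 6.88 ± 0.73 on the log2 scale in Ler against Col-0 (adjusted p = 7.86e-07) and rose by 6.39 ± 0.74 in asil1-1 asil2-2 against Ler (adjusted p = 3.54e-06). Both calls held under all 16 and all 15 alternatives, where the values ran from -7.80 to -6.28 and from 5.78 to 7.31. Fitted values rest on the 3 counts of Ler. Whether Ler reads of this gene align to the TAIR10 build as well as Col-0 reads was not tested. None of the asil mutants in the Col-0 background passed against Col-0 at this gene. In asil1-1 asil2-2, M17 was at -0.49 ± 0.37 against Col-0 and did not pass (adjusted p = 0.335).

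LEA7, a LEA gene on chromosome 1 (19619724 to 19621534), had 2, 11 and 2 counts in Col-0, 8, 2 and 2 in asil1-1, 36, 10 and 4 in the asil2-1 libraries, 3, 17 and 6 in asil1-1 asil2-1, 0, 4 and 1 in asil1-1 asil2-2, 3, 9 and 3 in asil2-2, and 35, 55 and 9 in Ler. The Ler libraries (0.637 to 5.37 CPM) lay above those of asil2-2 (0.143 to 0.384) and of asil1-1 asil2-2 (at most 0.273), whereas asil2-1 (0.318 to 3.25) overlapped Col-0 (0.198 to 1.07). LEA7 fell by 3.25 ± 0.89 on the log2 scale in asil2-2 (0.244 ± 0.113 against 2.7 ± 2.47 scaled CPM, n = 3 each; adjusted p = 0.0341) and by 4.36 ± 1.05 in asil1-1 asil2-2 against Ler (0.107 ± 0.126 scaled CPM; adjusted p = 0.00365). Against Col-0, asil1-1 asil2-2 was at -2.14 ± 1.28 and did not pass (adjusted p = 0.212). The change in asil2-2 minus the change in asil2-1 was -4.55 ± 1.28 (interaction term, adjusted p = 0.0146).

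The asil2-2 call of LEA7 was lost without asil2-2 replicate 1 (-3.19, 0.102), 2 (-3.74, 0.0996) or 3 (-2.98, 0.0854) and without Ler replicate 1 (-2.42, 0.105) or 2 (-3.45, 0.0725). The asil1-1 asil2-2 call held under all 14 alternatives, with -5.80 without asil1-1 asil2-2 replicate 2 and -3.53 without Ler replicate 1. The interaction was lost without asil2-1 replicate 1 (-3.01, 0.0957), without Col-0 replicates 1 and 2 (-5.80, 0.0568) and with the root score (-4.35, 0.0699), and was -5.73 without Col-0 replicate 2 and -3.73 without Ler replicate 1. Between the wild types LEA7 did not pass (2.23 ± 0.90, adjusted p = 0.058), but it did without Col-0 replicate 2 (3.4, 0.0383) or Ler replicate 3 (2.73, 0.0251). Its annotated span shares 297 nt with that of AT1G52695, which had 0 counts.

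LEA4-5, a group 4 LEA gene on chromosome 5 (2089445 to 2090430), had 1, 4 and 3 counts in Col-0, 4, 0 and 0 in asil1-1, 18, 2 and 6 in the asil2-1 libraries, 19, 23 and 5 in asil1-1 asil2-1, 4, 4 and 6 in asil1-1 asil2-2, 0, 0 and 3 in asil2-2, and 0, 14 and 2 in Ler. Its highest levels were in asil1-1 asil2-1 replicate 1 (1.65 CPM) and asil2-1 replicate 1 (1.63). It was called in none of the 11 comparisons. LEA4-5 passed the low-count filter only through 2 asil1-1 asil2-1 libraries and 1 asil2-1 library. Its higher values in those groups were thus a condition of being tested. The value nearest the threshold was asil1-1 asil2-1 against asil1-1 (3.08 ± 1.06, adjusted p = 0.0526). It passed without asil1-1 asil2-1 replicate 3 (3.51, 0.0372) or asil1-1 replicate 1 (adjusted p = 0.0364), whose removal leaves asil1-1 at 0 counts. It also passed with library size alone (0.0343), DESeq2 (0.0437), the length offset (0.033) and the root score (0.0368).

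AT3G17520, a LEA gene, had 2, 1 and 1 counts in Col-0, 9, 2 and 3 in asil1-1, 11, 1 and 0 in the asil2-1 libraries, 5, 12 and 2 in asil1-1 asil2-1, 2, 4 and 0 in asil1-1 asil2-2, 4, 2 and 2 in asil2-2, and 5, 12 and 9 in Ler. The 3 Ler libraries lay above those of Col-0, asil2-2 and asil1-1 asil2-2, but it too was called in none of the 11. AT3G17520 passed the low-count filter only through 1 library each of Ler, asil2-1 and asil1-1 asil2-1. Higher values in those groups were thus a condition of its being tested. The other 13 genes of the class had 1 to 44 counts in all, from ECP31 with 1 to AT3G53040 with 44. The group 1 genes EM1 and EM6, whose proteins mark the dry seed, had 2 counts (both in Ler libraries) and 13 counts. LEA25 had 17 counts, of which Ler held 0, 10 and 3, and PER1, a 1-cys peroxiredoxin gene of the seed, had 3.

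Among the LEA genes too low to test, AT3G53040 was pooled at 0.324 CPM in Ler (16 counts in 3 libraries) and 0.173 in asil2-2 (10 in 3), and at 0.0694 to 0.153 in the other groups. AT3G15670 and AT4G21020 each had 7 of their 12 and 15 counts in asil2-2 (0.121 CPM). LEA18, a group 4 gene, had 12 of its 33 counts in asil2-2 (0.208 CPM, 2 libraries, up to 10 in one) and 5 in Col-0 (0.174). LEA4-1, another group 4 gene, had 8 counts in Col-0 (0.278 CPM, 3 libraries), 4 in asil1-1, 1 in asil2-1, 0 in asil1-1 asil2-1 and 9 in Ler. ECP63 was spread thinly, at 0.0243 to 0.139 CPM by group, and AT5G44310 had 7 counts in 6 libraries. AT3G22490 had 2 counts, both in Col-0 replicate 2. With so few counts, these values describe the libraries and carry no test.

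**Figure D5:**
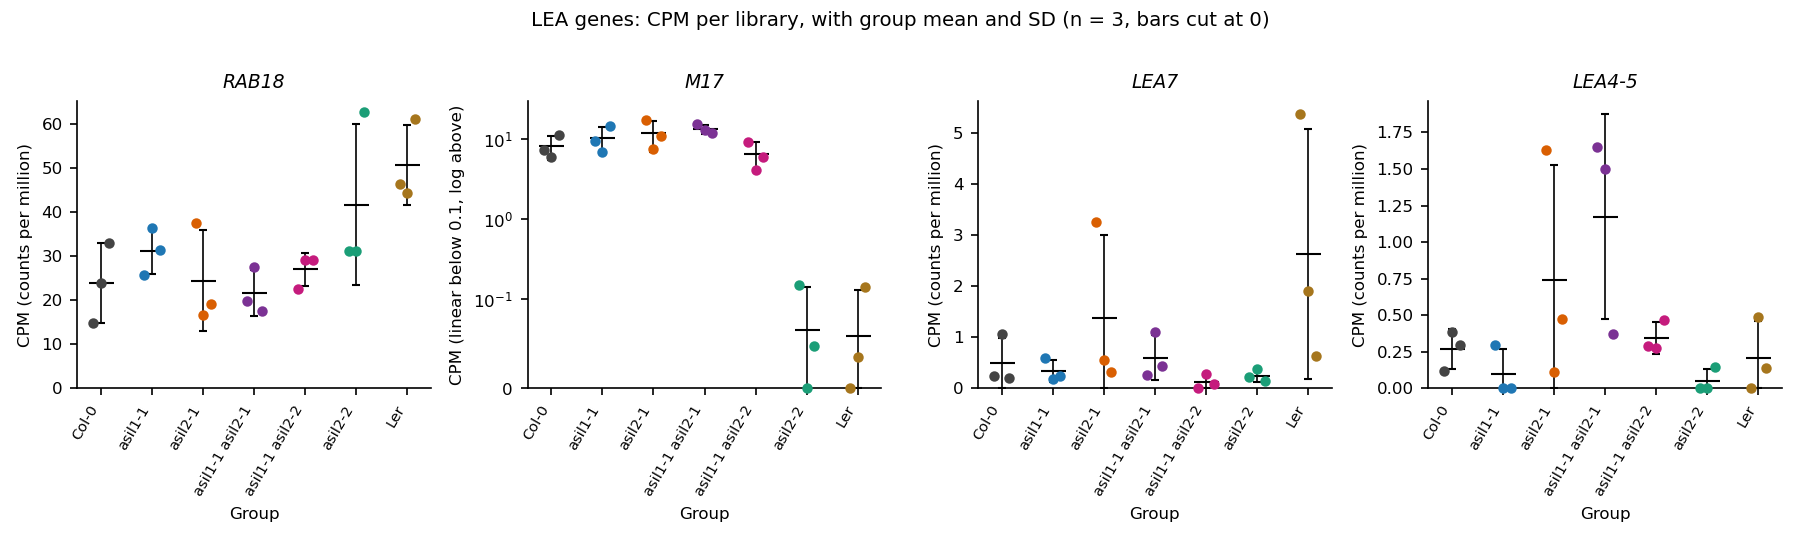
CPM (y axis) of RAB18, M17, LEA7 and LEA4-5 in each library (points), with the group mean and SD (bar, n = 3, cut at 0), for the 7 groups (x axis). The M17 axis is linear below 0.1 CPM and logarithmic above, and its 6 asil2-2 and Ler points are at no more than 0.149 CPM.

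Pooled over its 18 genes, the LEA class stood between 34.4 CPM (Col-0 and asil1-1 asil2-2) and 53.4 CPM (Ler), with 42 in asil1-1, 36.5 in asil2-1, 37.7 in asil1-1 asil2-1 and 43.9 in asil2-2. The storage class ranged more widely between groups, from 2.29 CPM in Col-0 (exact Poisson 95% interval 1.77 to 2.91), 2.61 in Ler and 2.65 in asil2-2 to 5.70 in asil1-1, 6.02 in asil1-1 asil2-2, and above those 10.8 in asil1-1 asil2-1 and 11.5 in asil2-1 (10.5 to 12.6). Without replicate 1, asil1-1 asil2-2 stood at 3.4 CPM for the storage class. These class sums follow their leading genes, PAP85 and AT4G36700 among the storage genes and RAB18 among the LEA genes. Pooled intervals hold no spread between replicates.

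The regulators had 91 counts in all, too few for a test. L1L, an NF-YB gene related to LEC1, had the most, with 1, 0 and 2 counts in Col-0, 6, 1 and 1 in asil1-1, 0, 5 and 2 in the asil2-1 libraries, 0, 7 and 1 in asil1-1 asil2-1, 4, 3 and 1 in asil1-1 asil2-2, 1, 6 and 2 in asil2-2, and 3, 6 and 1 in Ler. It shares 116 and 124 nt with 2 neighbours of 4636 and 9969 counts, so part of its 53 counts may belong to them. LEC2, a B3 gene, had 1, 0 and 7 counts in Col-0, 2, 0 and 0 in asil1-1, 0 in each asil2-1 library, 1, 0 and 3 in asil1-1 asil2-1, 0, 0 and 1 in asil1-1 asil2-2, 1, 2 and 5 in asil2-2, and 0, 2 and 2 in Ler.

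Col-0 replicate 3 held most of the LEC2 counts of its group, pooled at 0.278 CPM (exact Poisson 95% interval 0.12 to 0.547), and the 0 of asil2-1 allows up to 0.0716 CPM. FUS3 had 1 count in each of 4 libraries, ABI3 had 7 counts in 5 libraries, and LEC1 had 0. The class as a whole was pooled at 0.215 CPM (asil2-1) to 0.382 CPM (Col-0, 0.191 to 0.683). Col-0 stood at 0.107 CPM without replicate 3, and asil1-1 went from 0.307 to 0.105 without replicate 1. With no filter on low counts, 3 more genes were called: LEC2 lower in asil2-1 than in Col-0 (adjusted p = 0.0345), LEA4-1 lower in asil1-1 asil2-1 than in Col-0 (0.0228) and LEA25 lower in asil1-1 asil2-2 than in Ler (0.0322). These have groups at or near 0, and no fold is given.

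Related genes outside the set had more readable levels. Of 25 other LEA genes 12 were tested, and 5 were lower in asil1-1 (median log2 change -0.29, beside 0.03 over all genes tested), 6 lower and 1 higher in asil2-1 (-0.60, beside 0.02), and 7 lower and 1 higher in asil1-1 asil2-1 (-0.41, beside 0.02), all against Col-0, where 17.3%, 41.3% and 39.2% of all genes were called. With the root score as covariate the calls in asil1-1 were lost, and 3 genes were lower in asil2-1 and 3 in asil1-1 asil2-1. Without Col-0 replicates 1 and 2 the calls in asil1-1 were lost too, and 3 and 4 of 15 genes tested were lower in the other lines. The dehydrin gene AT1G54410 fell by 0.97 ± 0.15 in asil2-1 (349 ± 60.9 against 684 ± 115 scaled CPM; adjusted p = 3.9e-05) and by 0.95 ± 0.15 in asil1-1 asil2-1 (4.88e-05), and both calls held in these refits. Against Ler, 4 were lower and 1 higher in asil2-2 (median -0.43, beside -0.00053 over all genes, of which 5.96% were called), and 4 lower and 2 higher in asil1-1 asil2-2 (-0.24, beside -0.01, with 28.3% called). COR47, a cold-induced dehydrin gene, fell by 0.83 ± 0.12 in asil2-2 (267 ± 31.2 against 474 ± 62.8; adjusted p = 0.000282) and by 1.46 ± 0.12 in asil1-1 asil2-2 (9.43e-09). Root markers moved with the first 3 of these comparisons: 8, 6 and 7 of the 11 tested were lower in asil1-1, asil2-1 and asil1-1 asil2-1. They were called at 0 of 11 in asil2-2 and were higher at 3 of 11 in asil1-1 asil2-2 against Ler.

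Of 22 other storage and oil genes 9 were tested. Against Col-0, 1 was higher and 3 lower in asil1-1, 1 higher and 4 lower in asil2-1, and 1 higher and 2 lower in asil1-1 asil2-1, beside 17.3%, 41.3% and 39.2% of all genes called in either direction. The cupin gene AT1G07750 fell by 0.42 ± 0.12, 0.66 ± 0.12 and 0.83 ± 0.12 in these lines (adjusted p = 0.0183, 0.000147 and 1.57e-05), and the asil1-1 call was lost without Col-0 replicates 1 and 2 (adjusted p = 0.324) and with the root score (0.482). DGAT1, the acyltransferase that completes triacylglycerol, rose by 0.43 ± 0.13, 0.58 ± 0.13 and 0.64 ± 0.13 (0.0275, 0.00127 and 0.000585). All 3 DGAT1 calls were lost without Col-0 replicates 1 and 2 (adjusted p = 0.557, 0.135 and 0.0908), and that in asil1-1 also with the root score (0.608). HSD2, of the steroleosin family found on oil bodies, was 0.15 ± 0.0761 scaled CPM in Ler and 19.4 ± 1.04 in Col-0 (log2 -7.15 ± 0.29, adjusted p = 3.03e-14). As for M17, the alignment of Ler reads to TAIR10 at this gene was not tested.

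Of 16 other seed regulators 10 were tested. Against Col-0, 0 of the 10 were called in asil1-1, beside 17.3% of all genes. In asil2-1 and in asil1-1 asil2-1, 1 was higher and 1 lower, beside 41.3% and 39.2%. In asil1-1 asil2-2 and in Ler, 1 was higher and 2 lower than in Col-0, beside 32.2% and 36.1%. Against Ler, 1 was lower in asil2-2 (beside 5.96%) and 1 higher in asil1-1 asil2-2 (beside 28.3%). AGL18, a MADS-box gene, rose over Col-0 in asil2-1 (0.65 ± 0.18, adjusted p = 0.00653) and asil1-1 asil2-1 (0.79 ± 0.18, 0.00157). The asil2-1 call was lost without Col-0 replicates 1 and 2 (0.0933), and with the root score both were lost (0.119 and 0.0909). HSFA9, a heat stress factor of the maturing seed, had 12, 3 and 2 counts in Col-0 and 11, 3 and 11 in asil1-1, but 1, 1 and 0 in the asil2-1 libraries, 0 in all 9 libraries of asil1-1 asil2-1, asil2-2 and asil1-1 asil2-2, and 0, 0 and 1 in Ler. It passed the low-count filter through 1 Col-0 and 2 asil1-1 libraries, and was called lower than in Col-0 in asil2-1 (adjusted p = 0.0258), asil1-1 asil2-1 (0.00754), asil1-1 asil2-2 (0.00781) and Ler (0.0149). Without Col-0 replicates 1 and 2 all 4 calls were lost (0.476, 0.169, 0.161 and 0.328), and with the root score only that in asil1-1 asil2-2 held (0.0332). DOG1, a gene of seed dormancy, fell by 1.63 ± 0.38 in asil2-2 against Ler (0.476 ± 0.2 against 1.52 ± 0.12 scaled CPM; adjusted p = 0.0135).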

How the data were processed

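Polyadenylated RNA of 21 libraries was sequenced, and the authors deposited raw counts per locus, with only loci of at least 1 count listed. The submitters' processing notes name the TAIR10 build, Bowtie 0.12.7 and edgeR 3.0.8. Neither strand, nor the counting program, nor the handling of reads with several matches was given in the sources here. A locus not listed was taken as 0. Replicates are called biological by the labels, with no more detail.

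CPM was computed on library totals, and scaled CPM with TMM factors. Genes passing filterByExpr (19589 of 24100, 4511 removed) were fitted over all 21 libraries with edgeR 4.0.16 (R 4.3.3, robust quasi-likelihood, 14 residual df). P-values were Benjamini-Hochberg adjusted over all genes tested with a threshold of 0.05, and every adjusted p in the text is from edgeR unless DESeq2 1.42.0 is named. The fit was tested on simulated data for asil1-1 against Col-0 alone, with changes given only to genes of higher mean CPM. That test does not cover genes near the floor. Pooled levels have exact Poisson 95% intervals (SciPy 1.17.1). No replicate pair agreed within sampling noise (lowest chi-square per df 3.81). Promoters, coordinates and overlaps of gene spans (introns included) are from RefSeq TAIR10.1.

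The members and lists were chosen with earlier results of these data known. Values in every library were given for members passing the filter and for the 2 with most counts in each class. From other lists, called genes with the smallest p were named, at most 3 a comparison. Alternatives were no filter, a CPM filter, RLE scaling, library size alone, a length offset, DESeq2, only the groups compared, a replicate block, leaving out libraries and, added after the data were seen, a root score covariate (the mean centred log2 CPM of 11 root markers) and both root-related refits of the other lists.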

Additional observations from a re-analysis of the deposited data

Results flagged for a closer look

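In the main fit, LEA7 differed between the 2 asil2 alleles in its change from wild type. The change in asil2-2 from Ler minus the change in asil2-1 from Col-0 was -4.55 ± 1.28 on the log2 scale (interaction term in edgeR, adjusted p = 0.0146). LEA7 was lower in asil2-2 than in Ler (-3.25), with no call in asil2-1 against Col-0 (1.30 ± 0.93, adjusted p = 0.275). All 3 asil2-2 libraries lay below all 3 Ler libraries, while asil2-1 overlapped Col-0. The interaction call was lost without asil2-1 replicate 1, the highest of its group with 36 counts (-3.01, adjusted p = 0.0957). With the root score it was lost too (-4.35, adjusted p = 0.0699), and without Col-0 replicates 1 and 2 the value was -5.80. The call in asil2-2 against Ler was lost in 5 of the 6 fits that left out 1 library. The alleles lie in different ecotypes, so allele and ecotype cannot be told apart.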

How the results depend on the processing

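Of 1584 fold changes of the 9 tested genes under alternatives, 1500 kept their side of the threshold. Only 15 of the 99 tests were called in the main fit, so most of these values were uncalled and stayed so. All lost calls fall on those 15 tests. Calls were kept in 3 of 15 alternatives for OLEO4 in asil1-1 asil2-2 against Ler, and in all 16 for M17 in Ler against Col-0. Direction was not checked where a value passed in neither fit, and some of these changed sign. For LEA7 in asil1-1 against Col-0, leaving out 1 library gave -1.18 to 0.73. A further 63 kept direction but no longer passed, 20 newly passed in the same direction, and 1 called value reversed. This was AT4G36700 in asil1-1 asil2-1 against Col-0, at -0.46 without asil1-1 asil2-1 replicate 2, where leaving out 1 library gave up to 4.23. Pooled class levels moved by more than 1 SD between libraries in 1 of 140 cases (LEA in asil1-1 asil2-2, 32 CPM with TMM sizes). For the cases that left out 1 library, that rule could not decide. Leaving out 1 of 3 libraries of similar size shifts a mean by less than 1 SD, whatever the values. Some levels still left their counting interval, such as the storage class in asil1-1 asil2-2, from 6.02 to 3.4 CPM without replicate 1. Genes called without Col-0 replicates 1 and 2, where the lone Col-0 library is assumed to vary like the other groups, were, against Col-0, 202 (asil1-1), 3953 (asil2-1), 3895 (asil1-1 asil2-1), 3942 (asil1-1 asil2-2) and 3762 (Ler), with 0 for non-additivity and 2020 for the allele difference, beside 3382, 8081, 7683, 6303, 7077, 892 and 4437 with all libraries. Members called against Col-0 were then 0 (asil2-1), 0 (asil1-1 asil2-1), 0 (asil1-1 asil2-2) and 1 (Ler), and 0 for the allele difference. With the root score, genes called against Col-0 were 347 (asil1-1), 4683 (asil2-1) and 4234 (asil1-1 asil2-1), then 1765 in asil2-2 against Ler (1167 without it), 1906 in asil1-1 asil2-1 against asil2-1 (1216 without it), 24 for non-additivity and 2790 for the allele difference. Members called were 0 (asil2-1) and 1 (asil1-1 asil2-1) against Col-0, 3 in asil1-1 asil2-2 against Ler, 1 in Ler, 2 in asil1-1 asil2-1 against asil1-1 and 0 for the allele difference. With no filter, 2 members were called in asil2-1. Members called in asil1-1 asil2-1 against Col-0 were 1 with a length offset and 1 with only the compared groups. In asil1-1 asil2-2 against Ler they were 3 with library size alone and 3 with only the compared groups, and against Col-0 1 with the CPM filter, 1 with the length offset and 1 with only the compared groups. In asil1-1 asil2-1 against asil1-1, 2 members were called by DESeq2 and 0 with only the compared groups, and DESeq2 called 1 member against asil2-1 and 1513 genes for non-additivity. The cause of these moves was not tested.

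Leaving out 1 library at a time, genes called and members called ranged from 1515 to 3907 and 0 to 0 in asil1-1, 6256 to 7584 and 0 to 1 in asil2-1, 5981 to 7330 and 1 to 2 in asil1-1 asil2-1, 482 to 1371 and 0 to 1 in asil2-2 against Ler, 4103 to 5368 and 2 to 4 in asil1-1 asil2-2 against Ler, 4617 to 6842 and 1 to 2 against Col-0, 5535 to 6565 and 1 to 2 in Ler, 2001 to 2499 and 0 to 2 in asil1-1 asil2-1 against asil1-1, 649 to 1063 and 0 to 1 against asil2-1, 196 to 1838 and 0 to 0 for non-additivity, and 3408 to 4680 and 0 to 2 for the allele difference.

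Same-numbered libraries of compared groups correlated at -0.40 to 0.35 in their deviations from the group mean. Differently numbered libraries were not set beside them, so whether replicate numbers mark a shared batch was not tested. With a replicate block, 3419 genes were called in asil1-1 and 8084 in asil2-1 against Col-0, and members called were 2 for the allele difference (1 without the block), 4 in asil1-1 asil2-2 against Ler (5 without) and 3 in Ler against Col-0 (2 without). With these depths, 31 of 40 genes had too few counts to test.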
